A study of Homo sapiens with 4 samples.

Results

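The genes described here are the abundant ZNF genes of K562 cells, the named zinc finger genes that these cells transcribe at a clear level. A gene was taken when it was protein coding, had a symbol of the form ZNF with a number, and had a mean of at least 10 CPM (its count over the library total times 1000000) over the 4 libraries. That gave 247 genes of the 509 protein-coding ZNF genes in a table of 35606 genes. The genes were selected on their level, so levels are given as a description and were not tested. K562 is an established leukaemia cell line that keeps an erythroid character. The study compared K562 cells expressing JAZF1-SUZ12 with mock K562 cells by poly(A)-selected, directional mRNA sequencing, with 2 libraries in each group. JAZF1-SUZ12 is a fusion known from endometrial stromal sarcoma that joins JAZF1 to SUZ12, a core subunit of Polycomb repressive complex 2. Both groups share the K562 background and carry no other labelled change, and the vector, its promoter, the time after transfer, and whether cells were a clone or a pool are not given in the sources used here. Nothing states that the numbered libraries came from separate cultures, so p-values measure only the spread between these libraries, which may be technical.

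Most ZNF genes encode proteins with tandem C2H2 fingers, short zinc-binding folds that read DNA bases, and many also carry a KRAB domain near the amino terminus. The KRAB domain recruits TRIM28, a scaffold that brings the histone H3 lysine 9 methyltransferase SETDB1, heterochromatin protein 1 and deacetylases to DNA, and many of these proteins silence retroelements. KRAB zinc finger genes lie in clusters that expanded by duplication, above all on chromosome 19, so neighbours often share sequence. ZNF genes without KRAB are mixed in function and include activators, corepressor partners and RNA-binding or ribosome-associated proteins.

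Library totals ranged from 17260936 to 24423028 estimated counts, and the lowest count of any of the 247 genes in any library was 125. JAZF1, part of the fusion, rose from 12 and 27 counts in mock cells to 574 and 731 with the fusion, and SUZ12 had 133.7 ± 3.27 CPM against 272 ± 4.21 (SD, n = 2). The log2 differences were 5.05 and 1.01, in the labelled direction. The source label names the uterus, whereas the cell line label names K562. All 8 erythroid markers examined were present, GATA1 at 259 CPM without and 271 CPM with the fusion, while the 7 stromal or uterine markers were low. LUM had 0 counts in every library, COL3A1 at most 3, PDGFRA and THY1 at most 6, ESR1 between 4 and 14, DCN between 6 and 20, and PGR, the highest, between 93 and 147 counts (4.605 CPM in mock and 6.40 CPM in fusion cells). Among these markers HBZ (log2 change 0.86) and HBG1 (0.21) were higher with the fusion by the edgeR quasi-likelihood test with Benjamini-Hochberg adjustment (adjusted p = 2.47e-09 and 0.00125), and the part of any such shift in the results below was not tested.

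Mean levels of the 247 genes ran from 10.03 to 293 CPM, with a median of 24.7 CPM. ZNF595, a KRAB gene near the end of the short arm of chromosome 4, was the most abundant, followed by ZNF207, ZNF24, ZNF664 and ZNF146. ZNF207, which encodes the kinetochore and spindle protein BuGZ, had 262 and 268 CPM with the fusion and 282 and 290 CPM in mock cells. ZNF24, a SCAN-domain regulator, had 198 and 202 CPM with the fusion and 195 and 186 CPM in mock cells. ZNF664 had 197 and 199 CPM with the fusion and 184 in each mock library, and ZNF146 had 170 and 169 CPM against 183 and 176 CPM. None of ZNF24, ZNF664 and ZNF146 was called, although the ranges of the groups did not overlap. Per kilobase of transcript, which allows a comparison between genes, ZNF595 was also the highest at 100.8 CPM per kb, with ZNF385A at 61.3 and ZNF146 at 46.1 CPM per kb. At the threshold, ZNF513 (10.16 CPM) and ZNF552 (10.03 CPM) were just inside, and ZNF564 (9.87 CPM) and ZNF680 (9.85 CPM) just outside. ZNF618 and ZNF446 had a mock mean below 10 CPM and passed through the JAZF1-SUZ12 libraries, and ZNF552 passed through the mock libraries.

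The first question was how many of the ZNF genes differed between JAZF1-SUZ12 and mock cells. Of the 247 genes, 42 (17.0%) passed the edgeR quasi-likelihood test at an adjusted p under 0.05, against a background of 24.7% of the 14750 genes tested and 28.2% of the other 9133 protein-coding genes at 10 CPM or more. There were 14 higher and 28 lower genes with the fusion. The share higher, 5.67%, stood beside 13.3% of all genes tested and 10.6% of the other protein-coding genes at 10 CPM or more. The share lower, 11.3%, stood beside 11.4% and 17.6%. The other protein-coding genes had a higher median level, 49.7 CPM against 24.7 CPM, so bands of level were compared, ZNF genes given first. Shares lower were 3.30% and 3.50% from 10 to 20 CPM and 15.2% and 13.3% from 20 to 50 CPM. They were 11.1% and 21.2% from 50 to 100 CPM and 33.3% and 29.2% above 100 CPM. Falls were therefore not less frequent in every band. Shares higher in these bands were 2.20% and 16.1%, 6.67% and 11.4%, 11.1% and 8.38%, and 6.67% and 8.12%. The summed level of the 247 genes was 9083 and 9343 CPM in the JAZF1-SUZ12 libraries and 9375 and 9323 CPM in the mock libraries, so the groups overlapped. The median log2 change was -0.05, against 0.00 over all genes tested and -0.05 over the other protein-coding genes at 10 CPM or more.

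The changes were small. The groups of libraries did not overlap for any of the 42 called genes, and 41 of these changed by less than 1.5-fold, the exception being ZNF618. The 95% interval of the change lay within 1.5-fold in either direction for 238 genes (96.4%), compared with 64.5% of all genes tested and 93.2% of the other protein-coding genes at 10 CPM or more. Among the 205 genes not called, it did so for 203, the exceptions being ZNF771 and ZNF446, both named after their values were seen. Including genes that were not called, 50 genes (20.2%; 33.7% of all genes tested) were higher in both fusion libraries than in both mock libraries and 77 (31.2%; 27.2% of all genes tested) were lower. The split of calls moved under some alternatives. It was 14 higher and 30 lower with DESeq2 size factors, and 16 higher and 20 lower with total counts in place of TMM. A minimum mean of 50 counts gave 17 and 20, and DESeq2, which called 16.3% of all genes, gave 10 and 13. An offset for GC content and length gave 8 and 70 and moved the median of all genes to -0.07. That offset also raised the calls over all 14750 genes tested from 3643 to 5052.

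**Figure D1:**
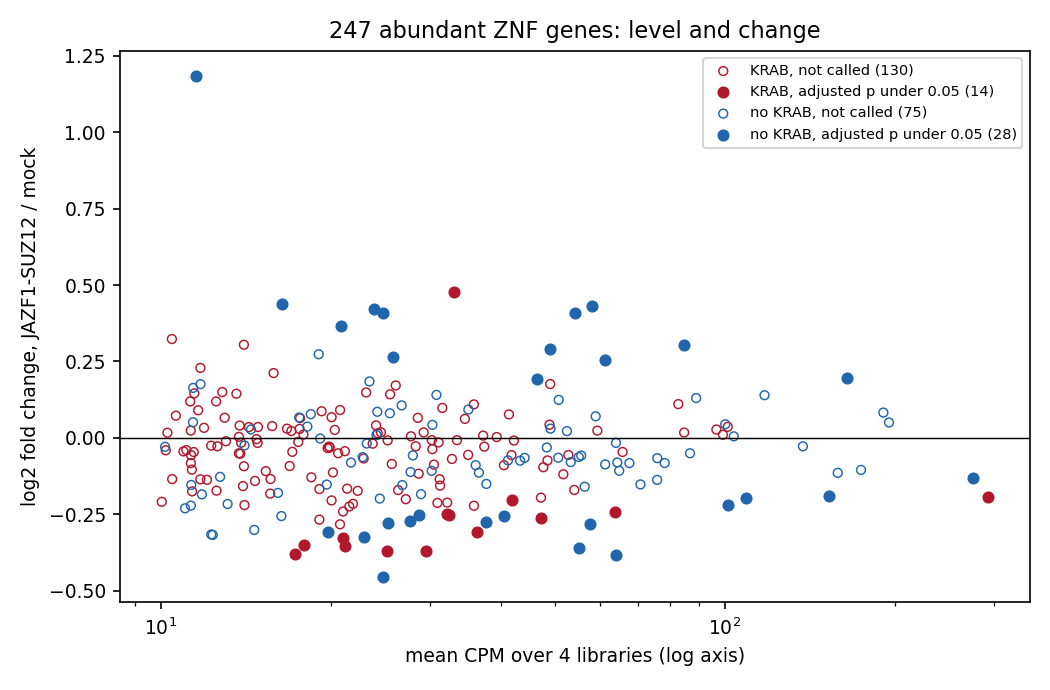
Log2 change from mock to JAZF1-SUZ12 cells (vertical axis) against mean CPM over the 4 libraries (horizontal log axis) for the 247 ZNF genes; each point is a gene, red with and blue without a KRAB domain, filled where the adjusted p was under 0.05. ZNF618 stands alone at 1.18, and 1 of the 14 filled points above zero is red.

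A larger share of genes was called at higher levels, where the standard errors were smaller. Between 10 and 20 CPM, 5 of 91 ZNF genes (5.49%) were called, beside 19.6% of other protein-coding genes in that band. Of those other genes 16.1% were higher with the fusion, against 2.20% of the ZNF genes. From 20 to 50 CPM the shares were 21.9% (23 of 105) and 24.7%, from 50 to 100 CPM 22.2% (8 of 36) and 29.6%, and above 100 CPM 40% (6 of 15) and 37.3%. The standard error of a log2 change ranged from 0.04 to 0.16 over the 247 genes.

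The KRAB domain, found from the coding sequence and not used to choose the genes, was then set beside the calls. Of 144 KRAB genes 14 (9.72%) were called, 13 lower and 1 higher, and of 103 genes without KRAB 28 (27.2%) were called, 15 lower and 13 higher. The share without KRAB was near the background of 24.7% of all genes tested and 28.2% of other protein-coding genes at 10 CPM or more. ZNF160 was the one KRAB gene that rose. The contrast between the classes was present within the bands of level below 100 CPM: 2 of 65 KRAB genes against 3 of 26 others between 10 and 20 CPM, 10 of 67 against 13 of 38 from 20 to 50 CPM, and 1 of 10 against 7 of 26 from 50 to 100 CPM. Above 100 CPM there were 1 of 2 and 5 of 13. The difference between classes is a description, since genes are not replicates. The medians of the log2 change were close, at -0.04 with KRAB and -0.07 without. The summed level of KRAB genes was 3928 and 4095 CPM with the fusion and 4126 and 4123 CPM in mock cells, lower in both fusion libraries. Median transcript GC content was 42.1% for KRAB genes and 51.3% for the others. The GC and length offset raised the called counts to 34 and 44, and those over all 14750 genes tested from 3643 to 5052. DESeq2 gave 6 and 17, and leaving out 1 library gave 6 and 17 without mock library 1, 8 and 17 without mock library 2 and 9 and 17 without JAZF1-SUZ12 library 2.

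**Figure D2:**
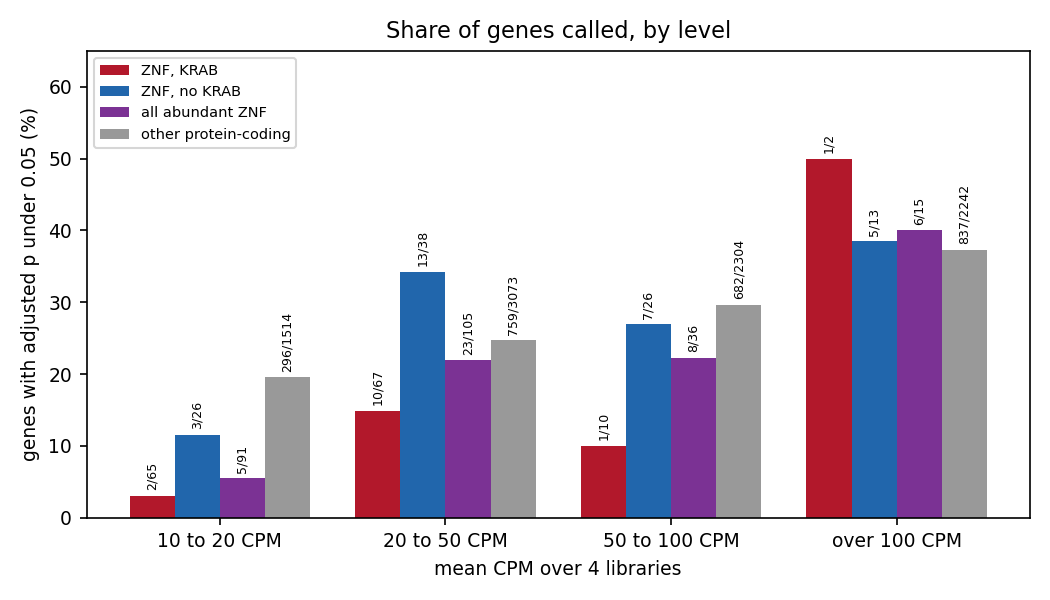
Percentage of genes with an adjusted p under 0.05 (vertical axis) in 4 bands of mean CPM (horizontal axis), for ZNF genes with KRAB (red), without KRAB (blue), all 247 ZNF genes (purple) and other protein-coding genes (grey); the numbers give genes called over genes in the band. In the band from 20 to 50 CPM the bars stand at 14.9%, 34.2%, 21.9% and 24.7%.

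ZNF160, which has been reported to repress the TLR4 gene, lies at chr19:53066606-53103436 (GRCh38, minus strand, GENCODE 29), and its protein has 20 C2H2 fingers. It had 37.9 and 39.5 CPM with the fusion and 28.0 and 26.8 CPM in mock cells. Both fusion libraries were above both mock libraries, a 1.39-fold rise (log2 0.48, SE 0.08, adjusted p = 0.000253, edgeR). Of its 31-base words 90.1% occur in no other gene's transcripts, and its closest partner by shared words, ZNF665, shares 4.19%. It was the single call among 24 ZNF genes, all with KRAB, in its stretch of chromosome 19 (chr19:51571298-53496255), where the median log2 change was -0.04.

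Among the KRAB genes that fell, ZNF587B had 25.5 and 26.4 CPM with the fusion and 32.5 and 33.7 CPM in mock cells. This was a log2 change of -0.37 (SE 0.08, adjusted p = 0.00264, edgeR), and only 72.7% of its 31-base words are unique, with 13.9% shared with ZNF814. ZNF584 had 20.6 and 23.6 CPM with the fusion and 28.96 and 27.6 CPM in mock cells (log2 change -0.37, adjusted p = 0.00675, edgeR). In both, the fusion libraries lay below the mock libraries. ZNF792 had 19.6 and 18.1 CPM against 23.7 and 23.5 CPM (log2 change -0.35, adjusted p = 0.0132, edgeR). ZNF776 had 15.5 and 16.2 CPM against 18.5 and 21.3 CPM (log2 change -0.35, adjusted p = 0.0268, edgeR). These 4 genes lie on chromosome 19, and all but ZNF792 lie in its last ZNF stretch, chr19:57351307-58481230. The call of ZNF584 was lost without mock library 1, that of ZNF776 without mock library 2 or with DESeq2, and that of ZNF792 with DESeq2 or without JAZF1-SUZ12 library 2 or either mock library. ZNF436, on chromosome 1, had 13.2 and 17.0 CPM with the fusion and 21.2 and 17.7 CPM in mock cells. Its groups were separated by less than 1 CPM (log2 change -0.38, SE 0.13, adjusted p = 0.0395, edgeR), and the call was lost with DESeq2, with total counts in place of TMM, with a minimum mean of 50 counts, and without JAZF1-SUZ12 library 1 or mock library 1. ZNF595 had 259 and 293 CPM with the fusion and 307 and 314 CPM in mock cells (log2 change -0.19, adjusted p = 0.0121, edgeR), lost without JAZF1-SUZ12 library 1 or mock library 2. The other KRAB genes that fell were ZNF189, ZNF721, ZNF746 (PARIS, a repressor degraded through parkin), ZNF107, ZNF714, ZNF316 and ZNF274.

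The windows of 250 bases upstream of the start are shown for ZNF160 and for the 4 KRAB genes that fell with the smallest p among those with an entry, as examples of the 14 KRAB genes called. They are RefSeq sequences on GRCh38.p14, read 5′ to 3′ on the gene's strand, and 216 of the 247 genes matched an entry. The window of ZNF160 is chr19:53103423-53103672 (minus strand), of ZNF587B chr19:57830049-57830298, of ZNF584 chr19:58408399-58408648, of ZNF316 chr7:6637068-6637317 and of ZNF595 chr4:53071-53320, the last 4 on the plus strand. Capitals mark the letters CCGGAAG (the core bound by ETS factors), CCAAT (the CCAAT box, bound by NF-Y) and TGACG (the core of a CREB/ATF site) or their reverse complements.
ZNF160: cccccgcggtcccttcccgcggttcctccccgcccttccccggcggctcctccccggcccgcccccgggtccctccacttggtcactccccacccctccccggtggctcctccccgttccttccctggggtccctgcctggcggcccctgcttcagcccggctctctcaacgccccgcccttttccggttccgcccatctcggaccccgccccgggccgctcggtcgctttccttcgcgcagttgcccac
ZNF587B: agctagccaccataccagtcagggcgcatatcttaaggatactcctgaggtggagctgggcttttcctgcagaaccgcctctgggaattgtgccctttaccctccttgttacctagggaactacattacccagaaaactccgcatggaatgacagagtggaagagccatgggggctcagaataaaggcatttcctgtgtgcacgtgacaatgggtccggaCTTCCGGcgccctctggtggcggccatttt
ZNF584: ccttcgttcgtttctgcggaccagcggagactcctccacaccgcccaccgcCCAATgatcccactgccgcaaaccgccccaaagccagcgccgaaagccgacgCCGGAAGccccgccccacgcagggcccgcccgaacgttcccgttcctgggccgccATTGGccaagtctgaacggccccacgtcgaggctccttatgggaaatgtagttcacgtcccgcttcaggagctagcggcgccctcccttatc
ZNF316: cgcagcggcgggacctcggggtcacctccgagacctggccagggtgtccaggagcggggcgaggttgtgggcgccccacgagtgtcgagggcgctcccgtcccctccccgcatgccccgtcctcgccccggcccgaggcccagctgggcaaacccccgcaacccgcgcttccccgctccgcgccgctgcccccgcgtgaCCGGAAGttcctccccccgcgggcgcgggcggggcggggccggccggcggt
ZNF595: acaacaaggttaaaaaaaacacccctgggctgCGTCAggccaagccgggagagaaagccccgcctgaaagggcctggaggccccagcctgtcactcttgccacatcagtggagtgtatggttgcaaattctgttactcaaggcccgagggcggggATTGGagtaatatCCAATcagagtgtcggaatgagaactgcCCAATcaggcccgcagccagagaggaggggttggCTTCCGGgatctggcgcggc
The window of ZNF160 holds none of these letters, and that of ZNF595 holds 5 matches, 3 of them CCAAT boxes and 1 an ETS core 13 bases before the start. ZNF584 has CCAAT boxes 194 and 87 bases before the start and an ETS core between them. A match is a string of letters and was not read as a bound site.

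The ETS letters stood upstream of a larger share of the ZNF genes than of protein-coding genes in general. Of the 216 windows 65 (30.1%) hold CCGGAAG on either strand. The share was 15.5% of the 10853 protein-coding genes tested that have a RefSeq entry, and 11.8% of all 15843 protein-coding genes with an entry. Among the ZNF genes it was 32.0% of 125 KRAB windows and 27.5% of 91 windows without KRAB. CCAAT was found in 53.6% of KRAB windows, 34.1% of windows without KRAB and 35.1% of protein-coding genes tested. The other letters searched, also on both strands, were TGACG (30.6% of ZNF windows, 29.2% of protein-coding genes tested), GGGCGG for SP and KLF factors (65.7%, 66.2%), CGCATGCG for NRF1 (5.09%, 3.28%), AAGATGGC for YY1 (2.31%, 1.75%), AGATAA for GATA factors (1.85%, 4.66%) and ACTACAA for ZNF143 (6.48%, 3.51%). Matches that overlapped were each counted. Of the 23 windows of genes that fell, 9 hold the ETS letters and 9 TGACG, and of the 12 windows of genes that rose 1 holds the ETS letters and 0 hold TGACG. Among 181 windows of genes not called the shares were 30.4% and 31.5%. CCAAT was found in 10 of the 23 windows and 2 of the 12, and GGGCGG in 14 and 7. The NRF1 letters were found in 0 of the 23 and 1 of the 12. The YY1, GATA and ZNF143 letters were each found in 1 and 1. These windows share base composition within classes, with median GC contents of 60.4% for KRAB genes and 66.4% for the others, and no test was made.

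**Figure D3:**
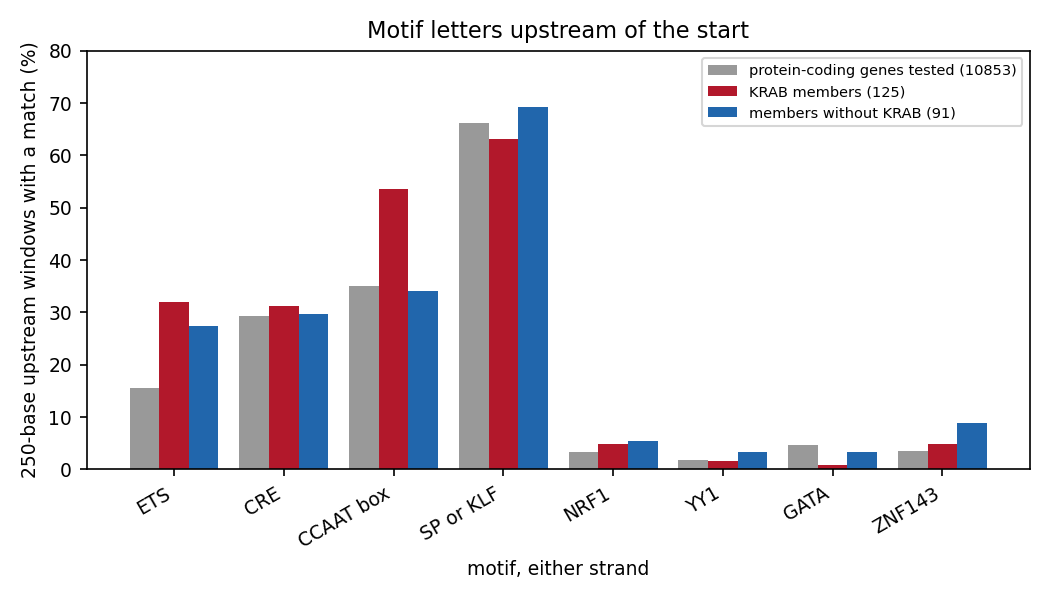
Percentage of 250-base upstream windows with a match on either strand (vertical axis) for 8 motifs (horizontal axis), in protein-coding genes tested (grey), ZNF genes with KRAB (red) and without KRAB (blue). ETS matches stand at 15.5%, 32.0% and 27.5%, and CCAAT boxes at 35.1%, 53.6% and 34.1%.

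ZNF618, a C2H2 protein reported to bind UHRF2, had the largest log2 difference of the 247 genes. Its mock mean was below 10 CPM, so it was selected only through its high fusion libraries and had to differ, and its rank and its place among the 14 higher genes carry that choice. It lies at chr9:113876282-114056591 and had 15.4 and 16.8 CPM with the fusion and 6.12 and 7.84 CPM in mock cells. The fusion libraries stood well apart from the mock libraries, with a 2.27-fold rise (log2 1.18, SE 0.15, adjusted p = 2.43e-05, edgeR). ZNF395, a hypoxia-responsive factor without a full C2H2 array, had 67.0 and 67.5 CPM with the fusion and 48.2 and 50.1 CPM in mock cells (log2 0.43, SE 0.06, adjusted p = 0.000107, edgeR). Its transcripts share 41.9% of their words with the overlapping FBXO16, which had between 5 and 11 counts in each library. ZNF117 had 58.6 and 66.0 CPM with the fusion and 49.5 and 43.1 CPM in mock cells (log2 0.41, SE 0.08, adjusted p = 0.000907, edgeR). Its groups did not overlap. ZNF117 overlaps ERV3-1, which was also higher (log2 0.58, adjusted p = 0.000121, edgeR). Of the words of ZNF117 88.5% are unique and 2.22% are shared with ERV3-1, and reads from the shared part may not be fully separated.

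ZNF219, a transcription factor that partners SOX9 in cartilage, had 19.8 and 18.3 CPM with the fusion and 13.7 and 13.9 CPM in mock cells (log2 0.44, adjusted p = 0.00859, edgeR). ZNF652, a DNA-binding partner of the corepressor CBFA2T3, had 25.1 and 29.8 CPM against 22.5 and 18.1 CPM (log2 0.42, SE 0.11, adjusted p = 0.00999, edgeR). The spread within each of its groups was wide, and its call was lost without JAZF1-SUZ12 library 2 or mock library 2. ZNF467, a regulator of the choice between bone and fat cells, had 27.8 and 28.99 CPM against 20.4 and 21.7 CPM (log2 0.41, adjusted p = 0.00265, edgeR). ZNF280D had 22.6 and 24.7 CPM against 17.4 and 18.8 CPM (log2 0.37, adjusted p = 0.0112, edgeR), with 55.6% of its words unique and a call lost with DESeq2 and without JAZF1-SUZ12 library 2 or mock library 1. ZNF318, a nuclear protein that in B cells controls the processing of IgD transcripts, had 93.7 and 94.6 CPM against 78.4 and 72.0 CPM (log2 0.30, adjusted p = 0.00148, edgeR). None of these 5 genes carries KRAB, and in each both fusion libraries were above both mock libraries. The remaining genes that rose were ZNF692, ZNF697, ZNF292, ZNF609 and ZNF397, by 0.19 to 0.29 on the log2 scale. The calls for ZNF219, ZNF609 and ZNF292 did not pass with the GC and length offset, and their adjusted p over the alternative edgeR, DESeq2 and limma-voom fits ranged from 0.00334 to 0.188, 0.00184 to 0.892 and 0.00211 to 0.217. Leaving out mock library 2 also ended the call of ZNF609, and leaving out JAZF1-SUZ12 library 2 or mock library 1 that of ZNF292.

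Of the genes without KRAB that fell, ZNF574 fell most. This gene at chr19:42068477-42081549 encodes 18 C2H2 fingers and had 20.05 and 21.9 CPM with the fusion and 29.003 and 27.9 CPM in mock cells. Both fusion libraries were below both mock libraries (log2 change -0.46, SE 0.09, adjusted p = 0.00125, edgeR). ZNF512B, a partner of the NuRD deacetylase complex, had 52.0 and 59.9 CPM against 67.1 and 77.2 CPM (log2 change -0.38, SE 0.08, adjusted p = 0.00168, edgeR). ZNF639 had 49.0 and 48.5 CPM against 62.5 and 60.7 CPM (log2 change -0.36, SE 0.06, adjusted p = 0.000574, edgeR). The replicates of ZNF639 were close in both groups. ZNF131, a BTB-domain factor, had 53.9 and 51.0 CPM against 63.9 and 61.7 CPM (log2 change -0.28, SE 0.06, adjusted p = 0.00437, edgeR). The others were ZNF593, ZNF260, ZNF696, ZNF865, ZNF526, ZNF644, ZNF142, ZNF518B, ZNF598, ZNF385A and ZNF207, which fell by 0.13 to 0.32 on the log2 scale. ZNF593 has 4.34% unique words because its transcript overlaps that of ZNF593OS, so its value is uncertain. ZNF593OS had between 11 and 22 counts in each library and ZNF593 between 390 and 556. ZNF526 lies close to ZNF574 on chromosome 19, and both fell.

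**Figure D4:**
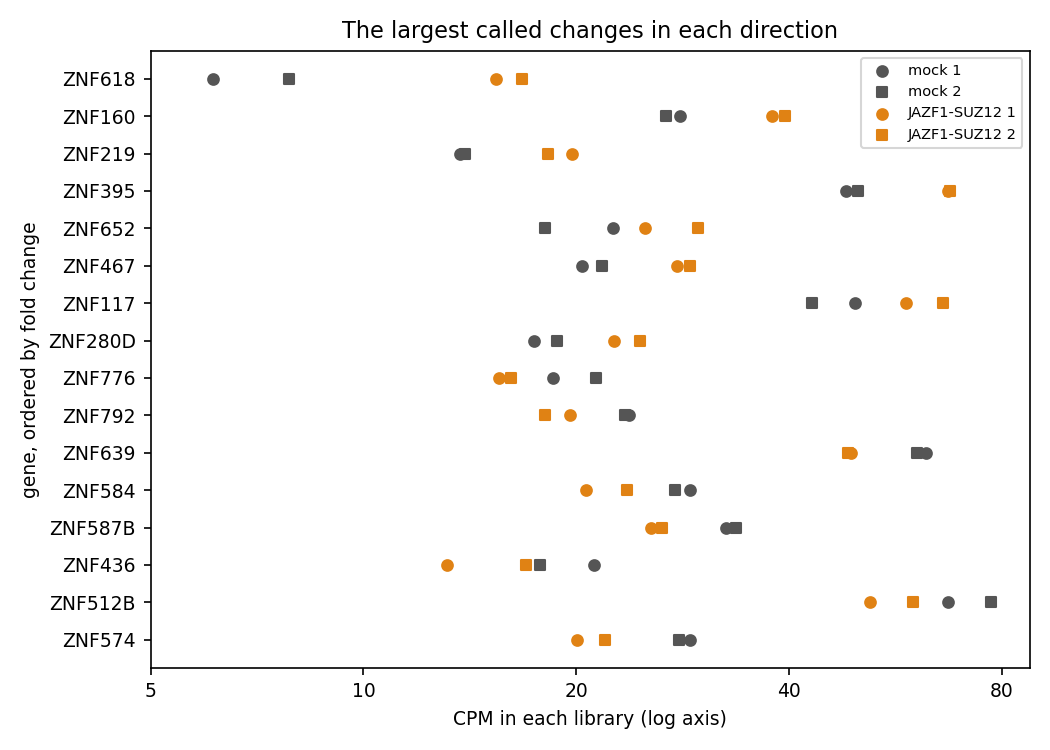
CPM in each library (horizontal log axis) for the 8 called ZNF genes with the largest rise and the 8 with the largest fall (vertical axis, ordered by fold change); orange marks JAZF1-SUZ12, grey mock, circles library 1 and squares library 2. The colours do not overlap in any row, and ZNF618 shows the widest gap.

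This list and the lists below were chosen with earlier results of these data known, so their counts are a description only. By known role, the list of ZNF proteins that act in RNA, ribosome or mitotic processes had 12 genes. Of these, 5 fell and 0 rose, with a median log2 change of -0.15. Over all genes tested 24.7% were called, 11.4% lower, with a median of 0.00, and over other protein-coding genes from 50 to 100 CPM 29.6% were called, 21.2% lower, with a median of -0.06. ZNF598, the ubiquitin ligase that marks collided ribosomes, had 105 and 99.9 CPM with the fusion and 118 and 112 CPM in mock cells (log2 change -0.20, adjusted p = 0.0184, edgeR). ZNF385A, an RNA-binding protein that also guides p53, had 151 and 137 CPM against 156 and 167 CPM (log2 change -0.19, adjusted p = 0.0263, edgeR). ZNF207 showed a log2 change of -0.13 (adjusted p = 0.0417, edgeR). In these genes the groups did not overlap, but leaving out any 1 library ended the call of ZNF207, as did total counts in place of TMM and a minimum mean of 50 counts, and leaving out JAZF1-SUZ12 library 2 ended those of ZNF598 and ZNF385A, as did mock library 1 for ZNF598 and mock library 2 for ZNF385A. The other two were ZNF574 and ZNF593, which matures the large ribosomal subunit. ZNF622, another factor of that subunit, was not called (log2 difference 0.12, 95% interval -0.02 to 0.27).

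Of 18 ZNF genes listed as corepressor or chromatin partners, 11 were among the 247. ZNF219 and ZNF609 rose, and ZNF512B, ZNF518B and ZNF644 fell (5 of 11, beside 24.7% of all genes tested and 28.2% of other protein-coding genes at 10 CPM or more), with a median log2 change of -0.03. ZNF609, which binds the cohesin loader and Integrator, had 175 and 179 CPM with the fusion and 155 and 149 CPM in mock cells (log2 0.20, adjusted p = 0.00798, edgeR). ZNF518B, a partner of the H3K9 methyltransferase G9a and of PRC2, had 94.8 and 93.9 CPM against 109 and 108 CPM (log2 change -0.22, adjusted p = 0.00694, edgeR). Its replicates differed by less than 1 CPM, and the call held in each alternative fit. ZNF644, which joins G9a and GLP, fell by 0.25 on the log2 scale (adjusted p = 0.0147, edgeR). Of 14 genes listed as activators or regulators without KRAB, 13 were among the 247, and ZNF395 and ZNF292 rose while ZNF639 and ZNF131 fell (4 of 13, beside the same 24.7% and 28.2%). ZNF292 had 64.0 and 70.3 CPM with the fusion and 53.7 and 57.4 CPM in mock cells (log2 0.25, adjusted p = 0.00945, edgeR). ZNF143, the activator of small nuclear RNA promoters, was not called (log2 difference 0.08, 95% interval -0.11 to 0.27).

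Of 18 KRAB genes listed for retroelements or imprinted regions, 8 were among the 247, and 1 fell (12.5%), near the 11.4% of all genes tested that were lower. It was ZNF274, which recruits SETDB1 to the 3′ ends of zinc finger genes, with 39.3 and 39.2 CPM with the fusion and 43.8 and 45.2 CPM in mock cells (log2 change -0.20, adjusted p = 0.0391, edgeR). The groups did not overlap, but the call ended when any 1 library was left out, with DESeq2, with total counts in place of TMM and with a minimum mean of 50 counts. ZNF445, which maintains imprints, was not called, with 84.7 CPM on average and a log2 difference of 0.02 (95% interval -0.10 to 0.14).

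Because KRAB proteins act through TRIM28, the 23 genes of the TRIM28 corepressor and H3K9 methylation machinery were set beside them. Of these, 7 fell and 1 rose (34.8% called), with a median log2 change of -0.12. This share is near that of other protein-coding genes of similar level, of which 29.6% were called from 50 to 100 CPM and 37.3% above 100 CPM, with medians of -0.06 and -0.08 (24.7% of all genes tested). CBX5, which encodes heterochromatin protein 1 alpha, rose from 313 and 322 CPM in mock cells to 375 and 394 CPM (log2 0.25, adjusted p = 0.000551, edgeR). CHD4, the NuRD remodeller, fell from 738 and 744 CPM to 650 and 630 CPM (log2 change -0.23, adjusted p = 0.000753, edgeR). The groups were separate in both. SUV39H1, PPHLN1, MORC2, HDAC2, EHMT1 and DNMT1 fell by 0.15 to 0.24 on the log2 scale. TRIM28 itself had 745 and 705 CPM with the fusion and 765 and 786 CPM in mock cells and was not called (log2 difference -0.12, 95% interval -0.21 to -0.02, adjusted p = 0.0625, edgeR), nor was SETDB1 (adjusted p = 0.0891, edgeR). ZNF410, known as an activator of CHD4, was not called either (log2 difference -0.09, 95% interval -0.25 to 0.08), and 5.02% of its words are unique. Leaving out 1 library left 3 to 8 of the 23 genes called, with 3 without JAZF1-SUZ12 library 2 and 4 without either mock library.

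**Figure D5:**
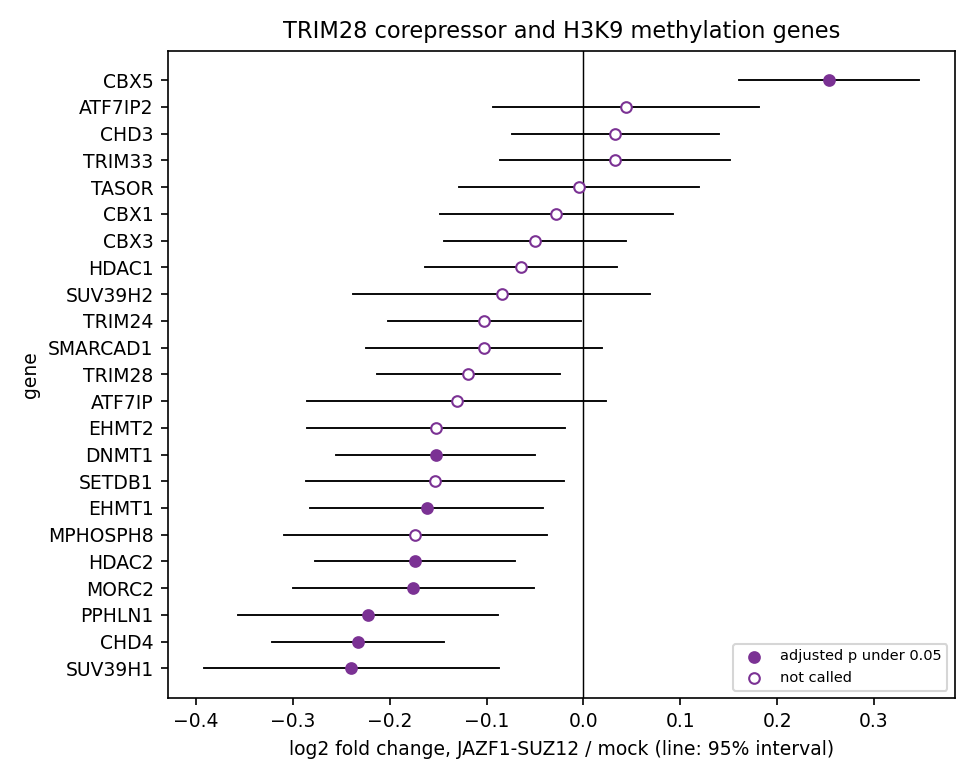
Log2 change from mock to JAZF1-SUZ12 cells (horizontal axis) with its 95% interval (line) for 23 genes of the TRIM28 corepressor and H3K9 methylation machinery (vertical axis); filled points had an adjusted p under 0.05. Of the 8 filled points, CBX5 is on the higher side and 7 are on the lower side.

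Chromosome 19 holds 97 of the 247 genes (39.3%, against 7.95% of all genes tested), with 54.2% of the KRAB genes and 18.4% of the others. Of these 97 genes 11 were called, 10 lower and ZNF160 higher, and 272 of all 1173 genes tested on the chromosome (23.2%) were called. Joining ZNF genes under 1000000 bases apart gave 14 stretches. In the last, 4 of 19 genes (21.1%) fell, which were ZNF587B, ZNF584, ZNF776 and ZNF274. Of all genes tested 11.4% were lower, and of those on chromosome 19 12.9%. In the first, chr19:7515292-9675086, 0 of 10 genes were called and the median log2 difference was 0.12, with ZNF358 at 0.27 (adjusted p = 0.0610, edgeR). Off chromosome 19, 24 of 84 genes without KRAB and 7 of 66 with KRAB were called. The number of fingers had a median of 11.5 in KRAB genes and 7 in the others. The calls were 13 of 51 with at most 4 fingers, 11 of 75 with 5 to 9, 9 of 73 with 10 to 14 and 9 of 48 with 15 or more, shares of 25.5%, 14.7%, 12.3% and 18.8% beside 24.7% of all genes tested.

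Sequence sharing limits some of these values. For 184 genes at least 80% of 31-base words occur in no other gene, and 36 of these (19.6%) were called. Of the other 63 genes 6 (9.52%) were called, beside 24.7% of all genes tested. ZNF320 and ZNF468, overlapping neighbours, have 0.515% and 0.845% unique words, so how their reads were divided is uncertain. In bulk RNA a lower level cannot be told apart from fewer cells that express the gene.

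In the authors' deposited table, 9 of the 247 genes had an adjusted p under 0.05, beside 8.5% of the genes with an adjusted p there. They were ZNF618, ZNF160, ZNF395, ZNF318, ZNF207, ZNF512B, ZNF639, ZNF574 and ZNF776, all called here in the same direction. The authors' deposited table gives log2 changes of 1.24 for ZNF618, 0.65 for ZNF395 and -0.71 for ZNF776. Of the 42 genes called here, 41 had the same sign in the authors' deposited table, the exception being ZNF721 at 0.03.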

How the data were processed

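The authors deposited estimated counts per gene as raw counts, not normalized, and 186 of the 247 ZNF genes have values that are not whole (tolerance 1e-06). Per the submitters' processing notes the tools were fastp 0.20.1, FastQC 0.11.7, MultiQC 1.5, kallisto 0.46.2 and DESeq2 1.30.1, with build hg38. The transcript annotation is not given in the sources used here. Estimated counts were rounded to whole numbers for the fits and for the counts given here, since whole counts had been assumed. CPM was computed from the unrounded values, as the count over the library total times 1000000. The authors' deposited table of JAZF1-SUZ12 against mock holds, per the file headers, a mean normalized signal, a log2 fold change with its error, a test score, and a p-value and adjusted p-value. No column of the deposited tables was left unmapped.

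All genes kept by filterByExpr (14750) were compared with edgeR 4.0.16 (R 4.3.3), TMM scaling, the quasi-likelihood F test with group as the only term, and Benjamini-Hochberg adjustment at 0.05, two-sided. In simulated counts the test recovered 196 of 200 genes changed 2-fold among 14750, with 10 false calls. Only 2-fold changes in these 200 genes were simulated. Recovery of the smaller changes that make up most ZNF calls was therefore not tested. False calls where a larger share of genes changes were not tested either. Positions are those of GENCODE 29 (GRCh38). KRAB domains were found with a profile (MAFFT 7.526, HMMER 3.4, E at most 1e-05) built from 251 windows matching a KRAB pattern in translated coding sequences, and fingers by the spacing of their cysteines and histidines. Words are 31-base substrings of transcripts, 31 being taken as the word length of kallisto.

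The genes and the lists were chosen with earlier results of these data known. The genes named are the 5 most abundant, the 8 largest called changes in each direction without overlap, the 3 smallest p in each direction, up to 4 called genes of each role list and those at the 10 CPM threshold. Others are named after their values were seen. The letters searched for NRF1 were shortened to CGCATGCG after a longer form had been searched. Alternatives were DESeq2 size factors, total counts, DESeq2 1.42.0, limma-voom (limma 3.58.1), other filters and thresholds, a replicate block, GC and length offsets and leaving out each library. The precision of every SD is limited by 2 libraries a group.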

Additional observations from a re-analysis of the deposited data

How the results depend on the processing

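In 15 alternative fits, none of the called genes named by rule changed sign, and 11 genes were called in all of them: ZNF618, ZNF160, ZNF395, ZNF117, ZNF467, ZNF574, ZNF512B, ZNF639, ZNF131, ZNF587B and ZNF518B. The 42 calls became 23 with DESeq2 (13 lower; 6 with KRAB, 17 without) and 19 at an adjusted p under 0.01 (9 lower; 5 with KRAB, 14 without; 2 of the TRIM28 list and 9 of the role lists). The planned GC and length offset gave 78 calls (8 higher, 70 lower; 34 with KRAB, 44 without, 7 of the latter higher; 14 of the TRIM28 list), a ZNF median of -0.14 and a median of -0.07 over all genes. With the replicate block added it gave 86 (8 higher, 78 lower; 39 with KRAB, 47 without, 7 of these higher; 15 of the TRIM28 list; 23 of the role lists; median -0.14). Over all 14750 genes tested the calls rose from 3643 to 5052 with the planned offset and to 5396 with the block added. A robust curve, added after the data were seen, gave 49 ZNF calls, or 48 with the replicate block. The ZNF median was -0.0233 with total counts and -0.0222 with a minimum mean of 50 counts, and KRAB genes that rose numbered 2 in each. The replicate block alone gave 51 calls (16 higher, 35 lower), with 2 KRAB genes higher. The deviations of same-numbered libraries correlated at 0.0251 over 11826 genes, so no strong shared deviation was seen. A single correlation cannot exclude that same-numbered libraries were handled together. Leaving out 1 library gave 23 to 40 calls (9 to 15 higher, 13 to 25 lower; median -0.06 to -0.03), 6 to 15 with KRAB (1 to 2 higher), 17 to 25 without (8 to 13 higher), 3 to 8 of the TRIM28 list and 9 to 15 of the role lists; calls numbered 40 without JAZF1-SUZ12 library 1, 26 without JAZF1-SUZ12 library 2, 23 without mock library 1 and 25 without mock library 2, where a lone library was assumed to vary like the other group. A level threshold of 20 CPM gave 37 calls and of 5 CPM 44, and leaving out genes under 80% unique words, added after the data were seen, gave 36. With 2 libraries a group, changes under about 0.1 on the log2 scale are mostly within the error.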

Other observations

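The 262 ZNF genes under 10 CPM gave a further view of the family. Of these, 202 were tested and 12 (5.94%, beside 24.7% of all genes tested) were called by the edgeR quasi-likelihood test with Benjamini-Hochberg adjustment, 10 higher and 2 lower. Among the 40 without KRAB 9 rose (22.5%) and 0 fell, and among the 162 with KRAB 1 rose and 2 fell. Of all genes tested 13.3% were higher and 11.4% lower. Of other protein-coding genes between 10 and 20 CPM, 16.1% were higher and 3.50% lower. Other genes under 10 CPM were not counted as a set, so the excess of rises is not read as particular to ZNF genes. ZNF827, a NuRD partner at telomeres, had 44 and 45 counts with the fusion and 1 and 6 in mock cells (log2 3.64, SE 0.61, adjusted p = 0.000453). ZNF503, a developmental repressor, had 18 and 28 counts against 1 and 7 (log2 2.46, adjusted p = 0.0156), and ZNF462, a chromatin regulator in neural development, had 13 and 18 against 5 and 2 (log2 2.09, adjusted p = 0.0436). In each the groups did not overlap, although mock counts were near the limit of detection and the size of the rise is imprecise. ZNF703, ZNF516, ZNF362, ZNF385C, ZNF660 and ZNF396 also rose without KRAB, by 0.87 to 1.74 on the log2 scale. ZNF827, ZNF503, ZNF462 and ZNF660 had at most 7 counts in each mock library. They were kept for testing only through the fusion libraries, so they could be called only as higher. Their calls, and the counts of rises that include them, carry that choice. The KRAB gene that rose was ZNF114, with 28 and 57 counts against 16 and 14 (log2 1.44, adjusted p = 0.0210). ZNF93, a repressor of LINE-1 elements, fell by 0.51 (adjusted p = 0.0423), and ZNF786 fell by 0.67 (adjusted p = 0.00868). These genes were named after their values were seen.

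Zinc finger genes with ZFP, ZSCAN, ZKSCAN or ZBTB symbols were less numerous. Of 73 tested 7 (9.59%) were called, 3 higher and 4 lower, with a median log2 difference of 0.02. Of the 49 at 10 CPM or more 6 (12.2%) were called, beside 17.0% of the 247 ZNF genes in the same range. All these shares were below 24.7% of all genes tested and 28.2% of other protein-coding genes at 10 CPM or more.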
